A study of Mus musculus with 9 samples.

Results

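Genes of the Lin28 and let-7 pathway were followed in wild-type mouse embryonic stem (ES) cells and in mutants of 2 microRNA-processing genes. The genes were Lin28a, Lin28b, Trim71, Hmga2, Igf2bp1 and Igf2bp3. They were chosen by name and not by a measured threshold, and every row of the array table annotated to them was taken. The 6 genes have 7 of the 22998 transcript clusters counted, 2 for Igf2bp1 and 1 for each of the others, in a table of 35557 clusters. A transcript cluster is the set of probes that an Affymetrix mouse gene array pools into 1 value. RNA was measured on 9 arrays, 3 each for wild-type (WT) ES cells of the v6.5 line, Dgcr8 knockout (KO) ES cells, in which deletion of an exon leaves a premature stop codon, and Dicer KO ES cells. The Dgcr8 protein is a subunit of the Microprocessor, the nuclear complex that releases microRNA hairpins from their primary transcripts, and Dicer is the enzyme that cuts the released hairpins. The paper calls the 3 cultures of a genotype biological replicates and the labels say only that plates were set up in triplicate. The p-values therefore measure the spread among those plates, which may be technical, and how many independent clones stand behind each knockout is not given in the sources used here.

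Lin28a and Lin28b are RNA-binding proteins that bind the loop of let-7 precursors and block their maturation, and let-7 in turn represses the mRNAs of both Lin28 genes. Trim71, Hmga2 and the Igf2bp mRNAs are classical let-7 targets, so this double-negative loop is known as a switch between the undifferentiated state, in which Lin28 is high and mature let-7 is low, and differentiation, in which the order is turned around. The miR-125 family, the vertebrate relative of worm lin-4, also represses Lin28 mRNAs.

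The sequences behind this pathway are the let-7 seed, which selects the target mRNAs, and the hairpin loop, which Lin28 reads. All 9 let-7 family mature forms of the list carry the same seed, bases 2 to 8, in capitals below, whose perfect match in an mRNA reads CUACCUC. Both miR-125 forms share another seed. The sequences come from RefSeq (GRCm38.p6), which held a hairpin for 14 of the 15 precursor genes listed, and 3 mature forms are enough to show the pattern.
let-7a-5p: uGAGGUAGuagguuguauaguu
let-7g-5p: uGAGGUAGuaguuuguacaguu
miR-125b-5p: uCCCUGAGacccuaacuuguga

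Lin28 proteins contact a GGAG motif in the loop of most let-7 precursors. The 4 letters were searched on the hairpin strand between the 2 mature arms, and 9 of the 12 let-7 family hairpins hold them there, against 8.07% of the 644 mouse hairpins with both arms in the table. Let-7b, let-7c-2 and miR-98 do not hold them in that window. The pair shown first has the motif, in capitals, and the pair shown last lacks it, and the RNA of these precursor genes is described further on.
Mirlet7a-1 hairpin, chr13:48538179-48538272, minus strand: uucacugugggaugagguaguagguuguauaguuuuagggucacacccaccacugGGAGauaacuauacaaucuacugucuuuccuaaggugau
Mirlet7g hairpin, chr9:106178840-106178927, plus strand: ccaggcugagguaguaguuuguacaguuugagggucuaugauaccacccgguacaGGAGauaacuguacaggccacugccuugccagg
Mirlet7c-2 hairpin, chr15:85706603-85706697, plus strand: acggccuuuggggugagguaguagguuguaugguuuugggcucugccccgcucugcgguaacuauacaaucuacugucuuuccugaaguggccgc
Mir98 hairpin, chrX:151913214-151913321, plus strand: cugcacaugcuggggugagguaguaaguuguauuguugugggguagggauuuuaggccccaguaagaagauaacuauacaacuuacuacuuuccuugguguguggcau

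Whole-array measures were even across genotypes. The medians of the 9 arrays lay between 6.49 and 6.56 on the log2 scale, and Pearson's r across transcripts, which are not independent replicates, was 0.996 to 0.998 within a genotype and 0.978 to 0.991 between genotypes. Dgcr8 was -0.94 on the log2 scale in Dgcr8 KO relative to WT, and Dicer1 was -1.84 in Dicer KO, so the targeted genes were low where the labels place the deletions. ES cell markers had array means of 11.2 to 11.3 for WT, near 11.5 for Dgcr8 KO and 11.6 for Dicer KO, and 7 of their 10 clusters were called higher and 1 lower in each mutant, where 33% of all 22998 transcripts were called in Dgcr8 KO and 36.8% in Dicer KO. Fibroblast and feeder cell markers had array means of 5.67 to 5.99 over all 9 arrays, with 1 of 11 clusters called in Dgcr8 KO and 2 of 11 in Dicer KO, below those shares. Primitive endoderm markers had means of 5.69 to 6.03. Of their 11 clusters, 1 was called higher and 1 lower in Dgcr8 KO, against 1 and 2 in Dicer KO. Trophoblast markers had means of 7.39 to 7.40 for WT, 7.004 to 7.09 for Dgcr8 KO and 7.47 to 7.54 for Dicer KO. Early neural markers had 7.36 to 7.51, 7.79 to 7.85 and 7.22 to 7.24 in the same order. Of 10 trophoblast clusters, 1 was called higher and 3 lower in Dgcr8 KO, against 3 and 2 in Dicer KO. Of 9 early neural clusters, 3 were called higher and 2 lower in Dgcr8 KO, against 2 and 4 in Dicer KO. Both lists thus had calls in both directions in each mutant, and their means do not show a shift shared by all their genes. The part of these marker shifts in the results below was not tested, and in bulk RNA fewer cells of a type and less RNA per cell cannot be told apart.

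Lin28a was the member with the largest change. Its mRNA was 7.86 times lower in Dgcr8 KO and 10.8 times lower in Dicer KO than in WT, while its paralog Lin28b passed the test in neither mutant. Lin28a (chr4:134003330-134019196 in GRCm38.p6) had log2 signals of 10.69, 10.77 and 10.88 in the WT cultures, 7.80, 7.76 and 7.86 in the Dgcr8 mutants and 7.50, 7.11 and 7.43 in the Dicer mutants. All 3 WT arrays lay far above the 6 mutant arrays, and every Dgcr8 KO array lay above every Dicer KO array. Relative to WT the difference in log2 signal was -2.97 (SE 0.0967, adjusted p = 5.87e-08) in Dgcr8 KO and -3.43 (SE 0.0967, adjusted p = 1.78e-08) in Dicer KO. Among the 22998 ratios counted, that of Lin28a ranked as number 3 from the lowest in Dgcr8 KO and number 4 from the lowest in Dicer KO. The mutants also differed from each other, with Dgcr8 KO higher by 0.46 (SE 0.0967, adjusted p = 0.00746), so the order of levels was WT, Dgcr8 KO, Dicer KO with each step past the test.

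Lin28b (chr10:45376617-45486314) had log2 signals of 8.27, 8.39 and 8.41 in the WT cultures, 8.47, 8.49 and 8.30 in the Dgcr8 mutants and 8.16, 8.29 and 8.16 in the Dicer mutants. The WT arrays overlapped with those of each mutant. The difference from WT was 0.06 (SE 0.0703, adjusted p = 0.592) in Dgcr8 KO, with a 95% confidence interval of -0.10 to 0.22, and -0.15 (SE 0.0703, adjusted p = 0.12) in Dicer KO, with an interval of -0.31 to 0.00. The difference in Dicer KO was called with quantile normalization repeated (-0.21, adjusted p = 0.0181) and with array weights (-0.19, adjusted p = 0.0327), and over all settings its adjusted p ran up to 0.277. The 95% intervals bound any fall of Lin28b well inside that of Lin28a, the other gene of the family. Between the mutants the 3 Dgcr8 KO arrays lay just above the 3 Dicer KO arrays, by 0.22 (SE 0.0703, adjusted p = 0.0529), which missed the threshold and passed it under several other settings.

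**Figure D1:**
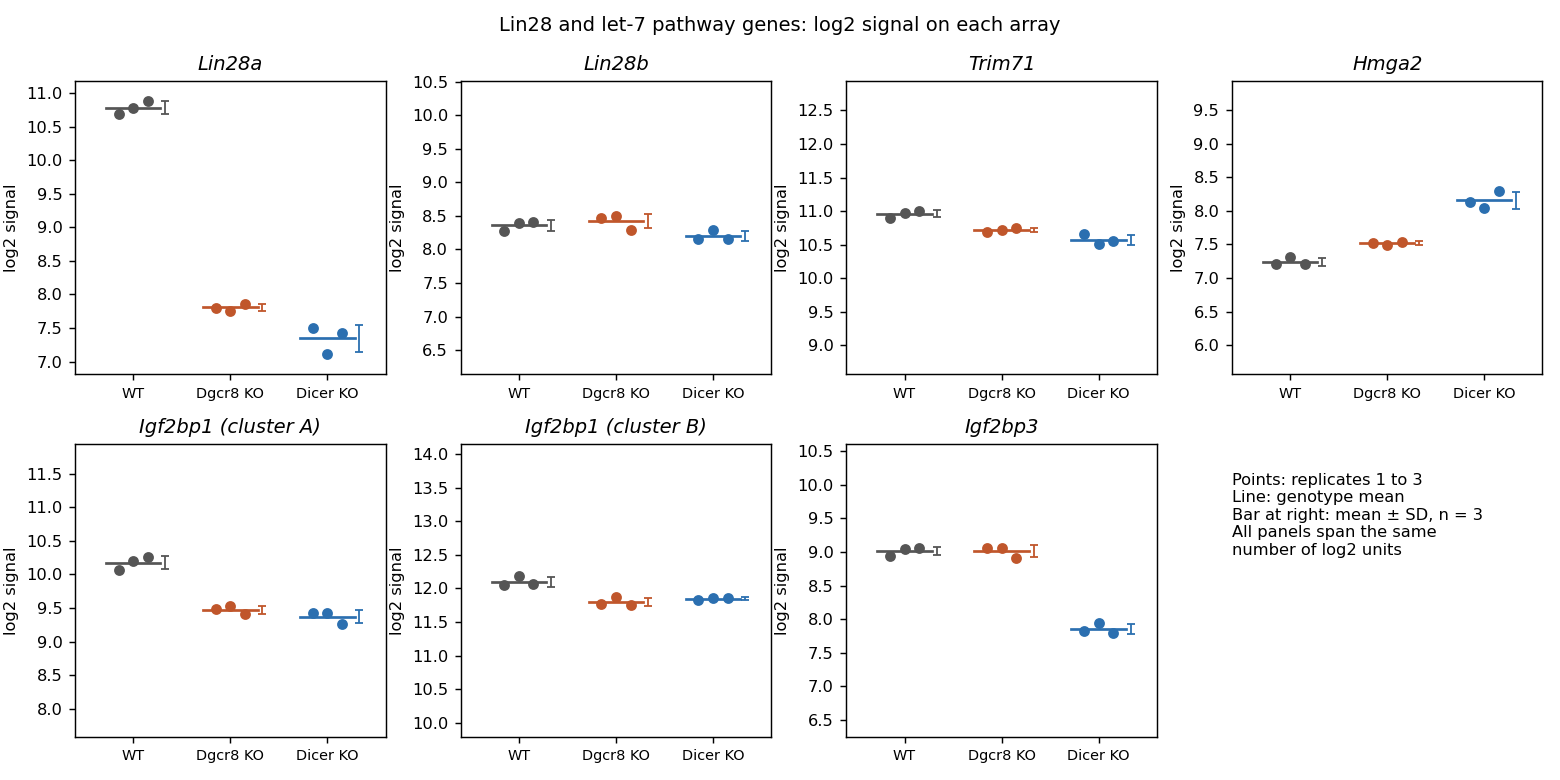
Log2 signal (vertical axis) of each member's transcript cluster on the 9 arrays, with points for replicates 1 to 3 of WT, Dgcr8 KO and Dicer KO, a line at each genotype mean and a bar for the mean ± SD (n = 3). Panels cover equal numbers of log2 units, so that the drop of Lin28a from 10.78 in WT to 7.81 and 7.35 can be set against the much smaller differences of Lin28b, and cluster A of Igf2bp1 is that with the larger change.

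Trim71, an RNA-binding ubiquitin ligase that represses mRNAs and is known from the worm as the let-7 target of the heterochronic pathway, was modestly lower in both mutants. Its cluster (chr9:114511268-114564369) had log2 signals of 10.90, 10.97 and 11.00 in the WT cultures, 10.69, 10.73 and 10.75 in the Dgcr8 mutants and 10.66, 10.51 and 10.55 in the Dicer mutants. Every WT array lay above every mutant array, and every Dgcr8 KO array lay above every Dicer KO array. The difference from WT was -0.24 (SE 0.0533, adjusted p = 0.00695) in Dgcr8 KO, 1.18-fold lower, and -0.39 (SE 0.0533, adjusted p = 0.000324) in Dicer KO, 1.31-fold lower. The call in Dgcr8 KO was lost with SAM, the permutation-based test of differential expression that the study used. It was rewritten here from its published description and not run with the study's package. SAM adds a constant to the standard error, here 0.74 for Dgcr8 KO relative to WT, 0.47 for Dicer KO and 0.16 between the mutants. A large constant holds back small differences, so calls lost in Dgcr8 KO need not match the study's own run. The step between the mutants, 0.15 (SE 0.0533, adjusted p = 0.0703), did not pass the test, so the order of Dgcr8 KO and Dicer KO was not settled beyond the spread. The step passed in 5 of 23 other settings. Over all settings it ran from 0.11 to 0.23, with adjusted p from 0.0078 to 0.262.

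Hmga2, a chromatin-binding protein whose mRNA carries many let-7 sites, was the member that rose. Its cluster (chr10:120361268-120476469) had log2 signals of 7.21, 7.31 and 7.20 in the WT cultures, 7.53, 7.49 and 7.54 in the Dgcr8 mutants and 8.13, 8.05 and 8.30 in the Dicer mutants. The 3 groups did not overlap, with WT lowest and Dicer KO highest. The difference from WT was 0.28 (SE 0.0673, adjusted p = 0.0104) in Dgcr8 KO, 1.21-fold higher, and 0.92 (SE 0.0673, adjusted p = 5.08e-06) in Dicer KO, 1.89-fold higher. Dgcr8 KO lay apart from Dicer KO by -0.64 (SE 0.0673, adjusted p = 0.000135), so the 2 mutants differed in how far Hmga2 rose. The rise in Dgcr8 KO was small and was not called by SAM, at 1.5-fold or more, or at an adjusted p under 0.01.

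Igf2bp1, which binds and stabilizes mRNAs such as that of Myc, was lower in both mutants in each of its 2 clusters, by unlike amounts. Cluster A had log2 signals of 10.07, 10.20 and 10.27 in the WT cultures, 9.49, 9.53 and 9.41 in the Dgcr8 mutants and 9.42, 9.43 and 9.26 in the Dicer mutants, and cluster B of 12.05, 12.18 and 12.06 in the WT cultures, 11.77, 11.87 and 11.76 in the Dgcr8 mutants and 11.83, 11.86 and 11.85 in the Dicer mutants. In each cluster the WT arrays lay above all 6 mutant arrays, while the mutants overlapped. In Dgcr8 KO the difference from WT was -0.70 (SE 0.0699, adjusted p = 4.59e-05) for cluster A and -0.30 (SE 0.0532, adjusted p = 0.00172) for cluster B, and SAM called cluster A but not cluster B. In Dicer KO it was -0.81 (SE 0.0699, adjusted p = 1.52e-05) for cluster A and -0.25 (SE 0.0532, adjusted p = 0.0045) for cluster B. Both clusters are annotated to Igf2bp1 alone (chr11:95957163-96005944), and which exons each covers was not analysed here. The mutants did not pass the test against each other, with 95% confidence intervals of -0.05 to 0.26 for cluster A and -0.17 to 0.07 for cluster B. Among the other settings, cluster A passed only with quantile normalization repeated (adjusted p = 0.0396).

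Igf2bp3, its paralog and likewise an mRNA-binding protein, separated the mutants. Its cluster (chr6:49085218-49215469) had log2 signals of 8.94, 9.05 and 9.05 in the WT cultures, 9.07, 9.06 and 8.90 in the Dgcr8 mutants and 7.83, 7.94 and 7.79 in the Dicer mutants. The Dgcr8 KO arrays overlapped with the WT arrays, and the Dicer KO arrays lay far below both. The difference from WT was -1.16 (SE 0.0653, adjusted p = 8.7e-07) in Dicer KO, 2.24-fold lower, against -0.0028 in Dgcr8 KO, with a 95% confidence interval of -0.15 to 0.14 (adjusted p = 0.982). The direct comparison put Dgcr8 KO above Dicer KO by 1.16 (SE 0.0653, adjusted p = 3.4e-06), number 106 from the highest among 22998 ratios.

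**Figure D2:**
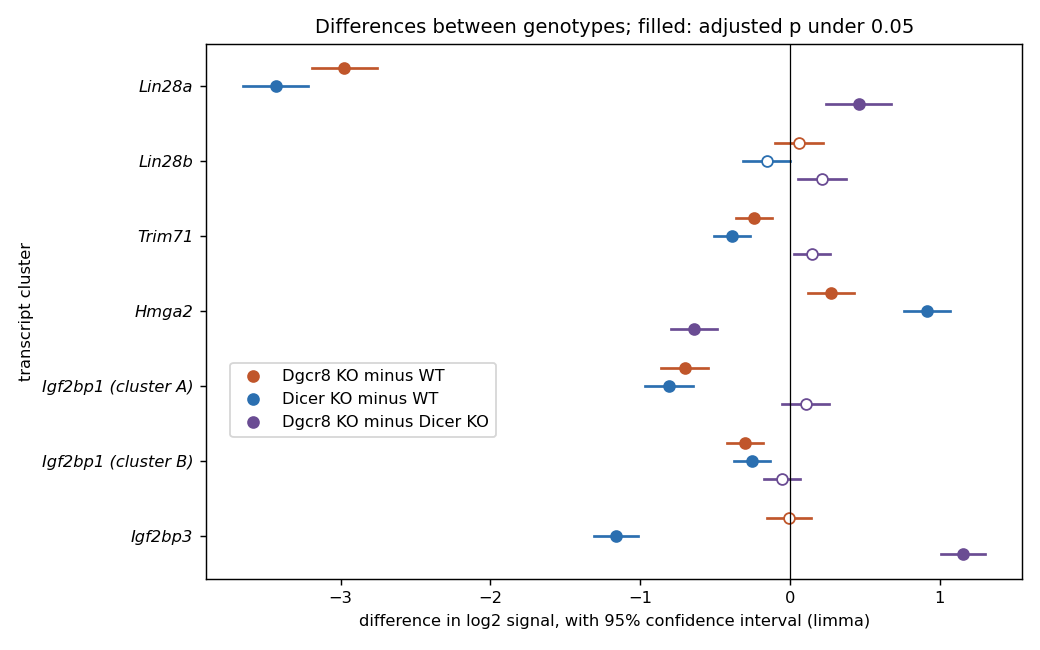
Difference in log2 signal (horizontal axis) between genotypes for each member cluster, with the 95% confidence interval from limma as a bar and a filled point where the adjusted p was under 0.05. Lin28a stands apart at -2.97 and -3.43 relative to WT, Hmga2 lies to the right of 0 in both mutants, and Igf2bp3 lies at -1.16 in Dicer KO against -0.0028 in Dgcr8 KO.

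Relative to WT, Dgcr8 KO had 1 of the 7 member clusters called higher and 4 called lower, where 33% of all 22998 transcripts were called (15.7% higher and 17.3% lower). In Dicer KO 1 was called higher and 5 lower, where 36.8% of all transcripts were called (17.8% higher and 19.1% lower). The members had median differences of -0.24 and -0.39 in the Dgcr8 and Dicer mutants, beside medians of -0.01 and -0.06 over all transcripts. In the direct comparison 2 clusters, Lin28a and Igf2bp3, were higher in Dgcr8 KO and 1, Hmga2, was lower, where 24.6% of all transcripts were called. The 2 comparisons with WT share the 3 WT arrays, so that calls in them are not independent: 4 clusters were called lower in both (11.3% of all transcripts were) and 1 higher in both (11.5%). With 7 clusters from 6 genes these counts describe the members and no more.

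For the members called in both mutants, the transcripts with the most similar pattern were taken as those with the smallest root mean square difference of the 9 log2 signals, each set against the WT mean. The transcripts nearest to Lin28a were Car4, Fndc3c1 and Slc38a4, at 0.246, 0.273 and 0.327 log2 units. Car4, a carbonic anhydrase, differed from WT by -3.30 and -3.31 in the Dgcr8 and Dicer mutants. Those nearest to Trim71 were Mbd3, Urod and Dtymk, those nearest to Hmga2 were Elk3, Lactb and Cyb561, and those nearest to Igf2bp1 were Pclaf, Ccdc58 and Lyar for cluster A and Rpl38, Pabpc1 and Smagp for cluster B. Elk3, an ETS-family transcription factor, was nearest to Hmga2 at 0.0583 log2 units.

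Of the let-7 family and miR-125 precursor genes, 5 were called higher in Dgcr8 KO and none in Dicer KO relative to WT. The array holds a cluster for each of 15 let-7 family and miR-125 precursor genes. They were fitted over all 35557 rows, since most hold only microRNA genes and are not among the transcripts counted. Those of Mirlet7b and Mirlet7c-2 also carry the symbol Lncppara, so they are counted and are not microRNA-only clusters. In Dgcr8 KO relative to WT 5 of the 15 were called higher and 0 lower, where 23.7% of all rows were called and 11.1% were higher, and where 35.5% of the 330 clusters holding only microRNA genes were higher and 0.909% lower. The 33.3% of precursor genes called higher is near the share of those microRNA-only clusters, and the 10 not called had differences of -0.12 (Mir98) to 0.67 (Mirlet7f-1). With Dicer deleted 0 of the 15 were called by limma at the adjusted threshold, 0 by SAM and 2 at an unadjusted p under 0.05, Mirlet7a-2 and Mir98, both lower, where 25.8% of all rows were called, and 5.15% of the microRNA-only clusters were higher and 8.48% lower. Mirlet7a-1 had log2 signals of 6.35, 6.04 and 6.07 in the WT cultures, 7.88, 7.76 and 7.76 in the Dgcr8 mutants and 6.14, 6.03 and 6.21 in the Dicer mutants, with the Dgcr8 KO arrays above all others and a difference from WT of 1.64 (SE 0.0925, adjusted p = 9.52e-06). Mirlet7g differed by 1.35 (SE 0.141, adjusted p = 0.000239) and Mirlet7d by 1.16 (SE 0.151, adjusted p = 0.000805), again with no overlap of Dgcr8 KO with WT or Dicer KO. In Dicer KO these 3 genes differed from WT by -0.03, 0.0083 and 0.18, and none passed the test. Without WT replicate 2, Mir98 was called lower in Dicer KO at -0.27.

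The other calls were weaker. The cluster shared by Mirlet7c-2 and the long non-coding RNA Lncppara differed by 0.49 (SE 0.136, adjusted p = 0.0315) and that of Mirlet7e by 0.30 (SE 0.0809, adjusted p = 0.0301) in Dgcr8 KO, and both calls were lost when WT replicate 2 or 3, Dgcr8 KO replicate 1 or 3 or Dicer KO replicate 1 was left out. The count of 5 fell to 3 without WT replicate 2, Dgcr8 KO replicate 3 or Dicer KO replicate 1, and these 3 were Mirlet7a-1, Mirlet7g and Mirlet7d, which kept their calls in all 19 other settings. Mirlet7f-1 lies between Mirlet7a-1 and Mirlet7d, and the 3 hairpins span 2261 bases of chromosome 13. Its difference of 0.67 (SE 0.256, adjusted p = 0.104) did not pass with limma. WT replicate 1, at 5.43, lay below the other WT arrays at 6.28 and 6.44. In Dgcr8 KO relative to WT, SAM called Mirlet7f-1 and did not call Mirlet7e. Against Dicer KO 7 of the 15 were higher in Dgcr8 KO and 0 lower, where 16.9% of all rows were called, 7.53% higher and 9.4% lower, and 38.5% of microRNA-only clusters were higher. These were the 5 above, Mirlet7i (0.57, adjusted p = 0.0354) and Mirlet7a-2 (0.28, adjusted p = 0.0178), and the count of 7 fell to 3 without Dicer KO replicate 1 and to 4 without Dicer KO replicate 2 or Dgcr8 KO replicate 1 or 3. No miR-125 gene was called by limma in any comparison under the reported settings, with differences from WT of 0.15, 0.44 and 0.14 in Dgcr8 KO for Mir125a, Mir125b-1 and Mir125b-2. Several precursor clusters were dim. The mean level of Mir125b-2 was above only 0.704% of the transcripts counted, that of Mirlet7c-1 above 1.45% and that of Mirlet7f-2 above 9.21%. Mirlet7a-2 and Mir125b-1 each lay above 11.5%. With no detection calls, signal at such levels cannot be told from background, also for the Mirlet7a-2 call above. Under other settings Mir125b-1 was called higher in Dgcr8 KO relative to WT in 4 of 19, among them array weights (0.51, adjusted p = 0.0311) and leaving out WT replicate 1 (0.61, adjusted p = 0.0168) or Dgcr8 KO replicate 1 (0.58, adjusted p = 0.0421), with adjusted p up to 0.281. Between the mutants SAM called both Mir125a (0.33) and Mir125b-1 (0.43), and Mir125a was called in 5 of the 19, among them leaving out WT replicate 1 (adjusted p = 0.0306) or Dicer KO replicate 3 (adjusted p = 0.0422), with adjusted p up to 0.163. Of the 5 higher in Dgcr8 KO relative to WT, Mirlet7c-2 lacks GGAG between the arms and the other 4 hold it, as do 5 let-7 family genes that were not called. Whether these probes read the primary transcript, the hairpin or the mature form was not tested.

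**Figure D3:**
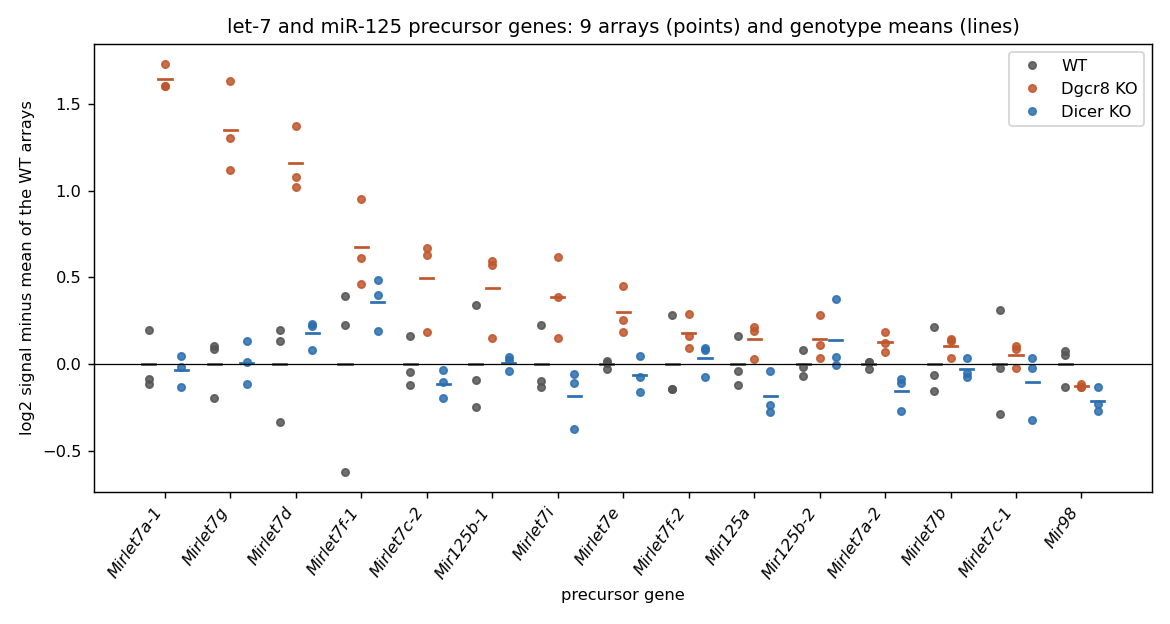
Log2 signal minus the mean of the WT arrays (vertical axis) for the 15 let-7 and miR-125 precursor genes, with a point per array, a line per genotype mean, and genes in order of the difference in Dgcr8 KO. The Dgcr8 KO arrays of Mirlet7a-1, Mirlet7g and Mirlet7d lie above all WT and Dicer KO arrays, while the genes at the right lie near 0 in all genotypes.

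Factors that act on let-7 maturation moved by small amounts in both directions. Of 21 clusters from 14 genes, 3 were called higher and 6 lower in Dgcr8 KO, 4 higher and 5 lower with Dicer deleted, and 3 were higher and 2 lower in Dgcr8 KO relative to Dicer KO. The shares called were 42.9%, 42.9% and 23.8%, beside 33%, 36.8% and 24.6% of all transcripts, and the medians were -0.11, -0.10 and -0.02 beside -0.01, -0.06 and 0.03 over all transcripts. Clusters are not separate genes here, since several carry Hnrnpa1 with the same other symbols. The 6 lower in Dgcr8 KO include clusters of Hnrnpa1, at -0.18 and -0.16, and both clusters of Tarbp2. The uridylyl transferases that work with Lin28a on let-7 hairpins had differences from WT of 0.04 and -0.22 in Dgcr8 KO and Dicer KO for Tut4, and of 0.06 and 0.26 for Tut7, where those in Dicer KO passed the test. Between the mutants Tut4 was higher with Dgcr8 deleted, by 0.26 (SE 0.0696, adjusted p = 0.0253), and Tut7 was named after its values were seen. Of 2 clusters of Tent2, a poly(A) polymerase related to them, 1 rose by 0.23 and 0.25, while the other did not pass, at 0.13 and 0.18. Dis3l2, the exonuclease that degrades uridylated let-7 hairpins, rose by 0.23 and 0.41 in the Dgcr8 and Dicer mutants. Xpo5, which exports hairpins from the nucleus, fell in both, with -0.26 (SE 0.0446, adjusted p = 0.00135) and -0.62 (SE 0.0446, adjusted p = 4.22e-06). Both clusters of Tarbp2, a partner of Dicer, were lower in both mutants, with -0.35 and -0.38 for Dgcr8 KO, -0.35 and -0.43 for Dicer KO. Prkra, another partner of Dicer, was lower in Dgcr8 KO than in WT, at -0.26 (SE 0.0678, adjusted p = 0.015), and than in Dicer KO, at -0.39 (SE 0.0678, adjusted p = 0.00258), with 0.13 (adjusted p = 0.16) in Dicer KO relative to WT. Ago2, the Argonaute protein that holds mature microRNAs, rose by 0.21 in Dicer KO in 1 of its 2 clusters, and the other did not pass, at -0.09. Msi1, an RNA-binding protein that works with Lin28 in neural cells, rose by 0.25 in Dgcr8 KO and was -0.29 in Dicer KO, and the mutants differed by 0.54 (SE 0.0434, adjusted p = 2.81e-05). The count for this list depended on the setting, from 0 to 14 called clusters in Dgcr8 KO and from 1 to 15 in Dicer KO, and each array centred on its median gave 1 higher and 6 lower in Dgcr8 KO while cyclic loess gave 5 and 4.

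Other genes reported as let-7 targets moved in both directions in the mutants. Of the 65 genes listed, 58 matched 62 clusters. In Dgcr8 KO 15 clusters were called higher and 13 lower, and in Dicer KO 13 higher and 15 lower. In Dgcr8 KO these were 24.2% and 21% of the list beside 15.7% and 17.3% of all transcripts, and in Dicer KO 21% and 24.2% beside 17.8% and 19.1%. Medians were 0.04 and -0.0047 beside -0.01 and -0.06 over all transcripts. Dicer1, a reported target itself, is the deleted gene and so counts among the 15 that were lower in Dicer KO. Cyclic loess gave 21 higher and 12 lower in Dgcr8 KO. The largest rise was that of Ccnd2, which encodes cyclin D2 and had log2 signals of 7.98, 8.02 and 8.07 in the WT cultures, 10.31, 10.48 and 10.61 in the Dgcr8 mutants and 10.26, 10.26 and 10.33 in the Dicer mutants, with every mutant array above every WT array. Its difference was 2.45 (SE 0.073, adjusted p = 3.6e-08) for Dgcr8 KO and 2.26 (SE 0.073, adjusted p = 3.35e-08) for Dicer KO. Myc, the transcription factor whose mRNA Igf2bp1 binds, moved the other way, with log2 signals of 10.06, 10.34 and 10.20 in the WT cultures, 7.46, 7.64 and 7.63 in the Dgcr8 mutants and 7.85, 7.80 and 7.86 in the Dicer mutants. Every WT array of Myc lay above every mutant array, and the difference was -2.62 (SE 0.0764, adjusted p = 3.12e-08) for Dgcr8 KO and -2.36 (SE 0.0764, adjusted p = 3.35e-08) for Dicer KO. Prdm1, a transcriptional repressor, rose by 0.98 and 1.13, and Mdm4, a regulator of the tumour suppressor Trp53, rose by 0.57 and 0.39 in Dgcr8 KO and Dicer KO. The cluster of Cdkn1a, which also carries the symbol 4930567H12Rik, rose by 1.22 and 1.82.

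Several of these targets separated the mutants, as Igf2bp3 and Hmga2 did. In the direct comparison 14 clusters were called higher and 10 lower in Dgcr8 KO. These were 22.6% and 16.1% of the list, beside 11.2% and 13.4% of all transcripts. The 14 include Dicer1, the gene deleted in Dicer KO, at 2.06. With each array centred on its median the counts were 9 and 11. That centring also turned the split over all transcripts from 2572 higher and 3083 lower to 1872 and 3573. Mycn, a Myc relative, had log2 signals of 11.46, 11.49 and 11.47 in the WT cultures, 11.45, 11.45 and 11.39 in the Dgcr8 mutants and 10.65, 10.70 and 10.65 in the Dicer mutants. It was low on the 3 Dicer KO arrays, at -0.81 (SE 0.0427, adjusted p = 6.12e-07) relative to WT, against -0.04 (adjusted p = 0.554) in Dgcr8 KO, and the mutants differed by 0.76 (SE 0.0427, adjusted p = 3.27e-06). Igf1r, the receptor of insulin-like growth factor, rose by 0.27 in Dgcr8 KO and was -0.65 in Dicer KO, with 0.92 (SE 0.0634, adjusted p = 1.15e-05) between them. Thbs1, a secreted matrix protein, had -0.92 in Dgcr8 KO, 0.0056 in Dicer KO and -0.93 (SE 0.0644, adjusted p = 1.18e-05) between them. Nme6, a nucleoside diphosphate kinase, was lower in both mutants in each of its 2 clusters, at -0.57 and -0.95 in Dicer KO.

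mRNAs reported as repressed by Trim71 were mostly higher in both mutants. Of 8 clusters from 8 genes, 7 were called higher with Dgcr8 deleted and 6 with Dicer deleted, with no negative difference in either, beside 15.7% and 17.8% of all transcripts called higher. Their median differences were 0.64 and 1.23 in the Dgcr8 and Dicer mutants, against -0.01 and -0.06 over all transcripts. The list was chosen with earlier results of these data known, so these shares and medians describe it and test nothing. Rbl2, a retinoblastoma-family repressor of the cell cycle, had log2 signals of 6.995, 6.93 and 7.04 in the WT cultures, 8.17, 8.37 and 8.17 in the Dgcr8 mutants and 8.43, 8.35 and 8.44 in the Dicer mutants, with every mutant array above every WT array. It rose by 1.25 and 1.42 in the Dgcr8 and Dicer mutants, and its relative Rbl1 by 1.00 and 1.26. The Cdkn1a cluster, which encodes the cyclin-dependent kinase inhibitor, is on this list as well as on that of let-7 targets, and Cdkn1a and Rbl2 are also known targets of the ES cell-specific microRNAs. Inhbb, a subunit of activin B, had log2 signals of 7.72, 7.79 and 7.74 in the WT cultures, 8.09, 8.11 and 8.05 in the Dgcr8 mutants and 9.28, 9.23 and 9.19 in the Dicer mutants. It rose by 0.34 and 1.48, and Dicer KO exceeded Dgcr8 KO on every array (difference of Dgcr8 KO from Dicer KO -1.15 (SE 0.0463, adjusted p = 5.42e-07)). Plxnb2, a semaphorin receptor, rose by 0.44 and 1.20, and Mbnl1, a splicing regulator, by 0.83 and 0.87. Egr1, an immediate-early transcription factor, rose by 0.33 in Dgcr8 KO and differed by 0.14 (adjusted p = 0.0698) in Dicer KO. Hoxa5 passed in neither, at 0.11 and 0.09. In the direct comparison 1 of the 8 was called higher and 4 lower with Dgcr8 deleted, beside 11.2% and 13.4% of all transcripts, and leaving out any of 5 arrays, such as Dgcr8 KO replicate 1, left 3 calls in place of 5.

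mRNAs reported as bound by Lin28a did not share a direction. Of 9 clusters from 6 genes matched, 1 was called higher and 2 lower in Dgcr8 KO, against 1 and 3 in Dicer KO. These were 33.3% and 44.4% of the list, beside 33% and 36.8% of all transcripts, with medians of -0.16 and -0.13. Igf2, the fetal growth factor whose translation Lin28 is known to promote, had log2 signals of 7.86, 7.78 and 7.82 in the WT cultures, 6.95, 6.76 and 6.68 in the Dgcr8 mutants and 7.64, 7.61 and 7.58 in the Dicer mutants. Every Dgcr8 KO array of Igf2 was below every array of the other genotypes, at -1.02 (SE 0.0681, adjusted p = 3.57e-06) relative to WT and -0.81 (SE 0.0681, adjusted p = 3.49e-05) relative to Dicer KO, while Dicer KO differed from WT by -0.21 (SE 0.0681, adjusted p = 0.0378). Pou5f1, the pluripotency factor, rose by 0.18 and 0.42 in the Dgcr8 and Dicer mutants. Cdc20, an activator of the anaphase-promoting complex, was lower by the same measure, at -0.30 and -0.28. The cell cycle genes Ccna2 and Cdk4 had differences of 0.03 and 0.0067 for Dgcr8 KO, -0.04 and -0.08 for Dicer KO, and none passed. Of the 4 clusters of the ribosomal protein gene Rps13, 1 was called, lower in Dicer KO at -0.17.

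mRNAs reported as bound by Igf2bp proteins likewise split. Of 12 clusters from 8 genes, 3 were called higher and 3 lower in Dgcr8 KO, against 6 and 3 in Dicer KO. These were 50% and 75% of the list, beside 33% and 36.8% of all transcripts, with medians of 0.09 and 0.16. Of the 6 higher in Dicer KO, 5 were beta-actin clusters that moved by 0.17 to 0.18, of which 4 also carry the symbol Actg1. Myc and Igf2, described above, and Mapk4, a kinase, were lower in both mutants, Mapk4 at -0.20 and -0.42. Btrc, a substrate receptor of a ubiquitin ligase, rose by 0.42 and 0.44. Cdk6 and Gli1 rose by 0.38 and 0.28 in Dgcr8 KO and missed the test in Dicer KO at 0.12 and 0.15. Cd44 passed in neither mutant, at -0.09 and -0.08.

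Among protein relatives of the members Trim2 moved most. Of 5 clusters from 4 matched relatives, 1 was called in Dgcr8 KO, a Ybx1 cluster at -0.15, and 1 in Dicer KO, 20% each time beside 33% and 36.8% of all transcripts. Trim2, a ubiquitin ligase of the family of Trim71, had log2 signals of 7.71, 7.74 and 7.67 in the WT cultures, 7.85, 7.72 and 7.74 in the Dgcr8 mutants and 6.82, 6.91 and 7.10 in the Dicer mutants. It was low on the 3 Dicer KO arrays, at -0.77 (SE 0.0734, adjusted p = 2.96e-05), against 0.06 in Dgcr8 KO (adjusted p = 0.595), and the mutants differed by 0.83 (SE 0.0734, adjusted p = 4.81e-05), so that Trim2, Igf2bp3 and Mycn each fell in Dicer KO relative to WT and to Dgcr8 KO. Trim3 and Trim32 differed from WT by 0.00019 and 0.01 for Dgcr8 KO, by -0.10 and -0.10 for Dicer KO, and neither passed the test.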

How the data were processed

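Cultures of mouse ES cells (3 WT, 3 Dgcr8 KO, 3 Dicer KO) were profiled on Affymetrix Mouse Gene 1.0 ST arrays, with 1 colour. The log2 values were normalized and deposited by the authors. The paper names RMA and the submitters' processing notes name GCRMA, with versions not given in the sources used here. These methods differ in background correction, which mostly affects dim clusters. Values were used as deposited, and with no signal over background in the table the number of arrays sets the precision. Groups came from the sample labels.

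Clusters were named from the platform annotation, updated through gene identifiers to RefSeq (GRCm38.p6), which gave the gene positions. Left out were 12147 clusters without a symbol, 330 holding only microRNA genes, 4 mitochondrial and 78 Y-linked clusters, a filter that the study's methods state for an overlap analysis and not for its SAM test, and 22998 transcripts were tested. In R 4.3.3, limma 3.58.1 fitted a mean per genotype to all 9 arrays (lmFit, eBayes), with Benjamini-Hochberg adjustment over all transcripts counted and a threshold of 0.05. Precursor genes were fitted over all rows. The scripts were tested on simulated data.

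The members and all lists were chosen with earlier results of these data known. Named were the members, genes of lists with at most 10 genes measured, in longer lists the 6 called genes with the smallest adjusted p in each comparison with WT and 4 in the direct comparison, and the 3 transcripts most like each member called in both mutants. Other list genes, apart from Tut7 and Hnrnpa1, and the cell type markers stand in counts only. Alternatives were SAM as rewritten here, a stricter threshold, a minimum fold, other transcript filters and other normalizations. Further ones were trend and robust variance, array weights, the replicate block and leaving out arrays. Alternatives for the Trim71, maturation and precursor lists were added after seeing the data. Protein sequences and target sites in mRNAs were not analysed here.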

Additional observations from a re-analysis of the deposited data

How the results depend on the processing

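Across 23 alternative settings, 451 of 483 member differences kept their direction and their side of the threshold, 10 lost and 16 gained a call, and 6 reversed. Every reversal was in a difference not called: Lin28b in Dgcr8 KO relative to WT became -0.021 without WT replicate 1 and Dgcr8 KO replicate 2, Igf2bp3 in Dgcr8 KO became 0.037 under cyclic loess and ran from -0.041 to 0.051 when single arrays were left out, above 0 without WT replicate 2 or 3 or Dgcr8 KO replicate 3, and cluster B of Igf2bp1 between the mutants became 0.015 under repeated quantile normalization. Calls against WT of Lin28a, cluster A of Igf2bp1 and Hmga2 in Dicer KO, and of Igf2bp3 in Dicer KO, held in all settings.

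The 5 member calls in Dgcr8 KO relative to WT became 2 with SAM and 2 when at least 1.5-fold was required, both times Lin28a and cluster A of Igf2bp1. At an adjusted p under 0.01 Hmga2 lost its call in Dgcr8 KO. The 3 between the mutants became 5 without the dimmest 25% of transcripts, 6 with repeated quantile normalization (5 higher, 1 lower), 5 with cyclic loess and 5 with trend and robust, as Lin28b and Trim71 gained calls. Repeated quantile normalization also called cluster A of Igf2bp1 higher in Dgcr8 KO (adjusted p = 0.0396). Leaving out each array gave 5 to 5 calls in Dgcr8 KO, 6 to 6 in Dicer KO and 3 to 4 between the mutants. For let-7 targets, the 28 calls in each mutant became 11 in Dgcr8 KO and 13 in Dicer KO at 1.5-fold or more, and the 24 between the mutants became 7 at 1.5-fold and 14 at an adjusted p under 0.01. Leaving out arrays gave 25 to 28, 27 to 29 and 16 to 26.

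Of Trim71-repressed mRNAs, 4 were called in Dgcr8 KO at 1.5-fold, and 3 between the mutants at 1.5-fold, at 0.01 and over all rows of the table. Leaving out arrays gave 7 to 7, 6 to 7 and 3 to 5. Maturation factors called in Dgcr8 KO were 2 with SAM, 14 with trend and robust or array weights, 0 at 1.5-fold and 4 at 0.01. In Dicer KO they were 5 with SAM, 15 with quantile normalization, trend and robust or array weights, 1 at 1.5-fold and 14 without WT replicate 1 and Dgcr8 KO replicate 2. Between the mutants they were 0 at 1.5-fold and 3 at 0.01. Leaving out arrays gave 5 to 10, 7 to 11 and 3 to 6. Precursor genes called in Dgcr8 KO were 3 at 1.5-fold or at 0.01 and 8 without WT replicate 1 and Dgcr8 KO replicate 2, and between the mutants 4 at 1.5-fold and 3 at 0.01. Leaving out arrays gave 3 to 6, 0 to 1 and 3 to 8. The cause of these shifts was not tested beyond the stricter limits of the settings at 1.5-fold and 0.01.

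The labels number the replicates alike in each genotype, but same-numbered arrays deviated together with correlations from -0.20 to 0.34, over 0.1 in 5 of 9, so the numbers were not taken as a pairing. With the replicate number as a block, member calls were 5, 6 and 3, those of let-7 targets 27, 29 and 24, and those of precursor genes 6, 0 and 7.

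The deposited values carry no detection calls, so a low level cannot be told from background, and 3 arrays per genotype set the precision.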
